A study of Mus musculus with 16 samples.

Results

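Lipid-associated macrophages are macrophages of adipose tissue that gather at stressed or dying adipocytes, take up their lipid and break it down in lysosomes. They are known by a shared set of surface, lysosomal and secreted proteins, several of them under the lipid-sensing receptor TREM2. This receptor has no signalling tail of its own and works through the adaptor DAP12, the product of Tyrobp. In mice the programme is best known from obese fat, and lysosomal genes such as Gpnmb are also known targets of the MiT/TFE transcription factors, which switch on lysosome genes when nutrients run low.

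The expression of 9 markers of these cells was examined in gonadal white adipose tissue, the fat pad beside the epididymis. The markers were Trem2 and its adaptor Tyrobp, the lysosomal genes Cd68, Lgmn, Gpnmb and Cd63, the surface genes Cd9 and Itgax, and the secreted protein gene Spp1. Each marker was read from the probe set that carries its symbol alone, taking the one with the highest mean over the arrays where there were several. This gave values for 8 of the 9 markers among 22180 genes, and Spp1, which codes for osteopontin, was not analysed here. Cd9 had a second probe set, whose mean log2 value over the 16 arrays was 2.91 and therefore below the lowest array median of 3.60.

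The study set 8 fed samples, from mice that had eaten freely, beside 8 samples taken after a 16 h fast. All mice were C57BL/6 males between 3 and 4 months old, the labels name no genetic change in either group, and tissue was collected in the morning. RNA was hybridised to Affymetrix whole-transcript arrays. Whether every sample is a different animal is not stated in the labels, and p-values therefore reflect only how far these samples vary. All values below are deposited log2 array values, and a gene is called when its adjusted p is under 0.05 in limma over all genes (Benjamini-Hochberg).

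The markers did not change together on fasting. Cd68, Lgmn and Gpnmb rose by between 1.72-fold and 1.96-fold, Itgax fell by a factor of 1.645, and Trem2, Tyrobp, Cd9 and Cd63 did not pass the test. Thus 4 of the 8 measured markers were called, where 19.2% of all genes were. All 8 passed the filter on dim genes described with the processing below, as did only 10832 of the 22180 genes. With that filter applied, 4553 of the 10832 genes were called, a larger share than 19.2%. The 19.2%, here and for the lists below, is therefore a low standard for sets of bright genes. The 3 called higher compare with 8.49% of all genes in that direction, and the 1 called lower with 10.7%. The tissue was measured whole, so fewer or more cells of a type and less or more RNA per cell cannot be told apart. Cd63, Cd9 and Lgmn are also made by many other cell types, and Itgax by dendritic cells.

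**Figure D1:**
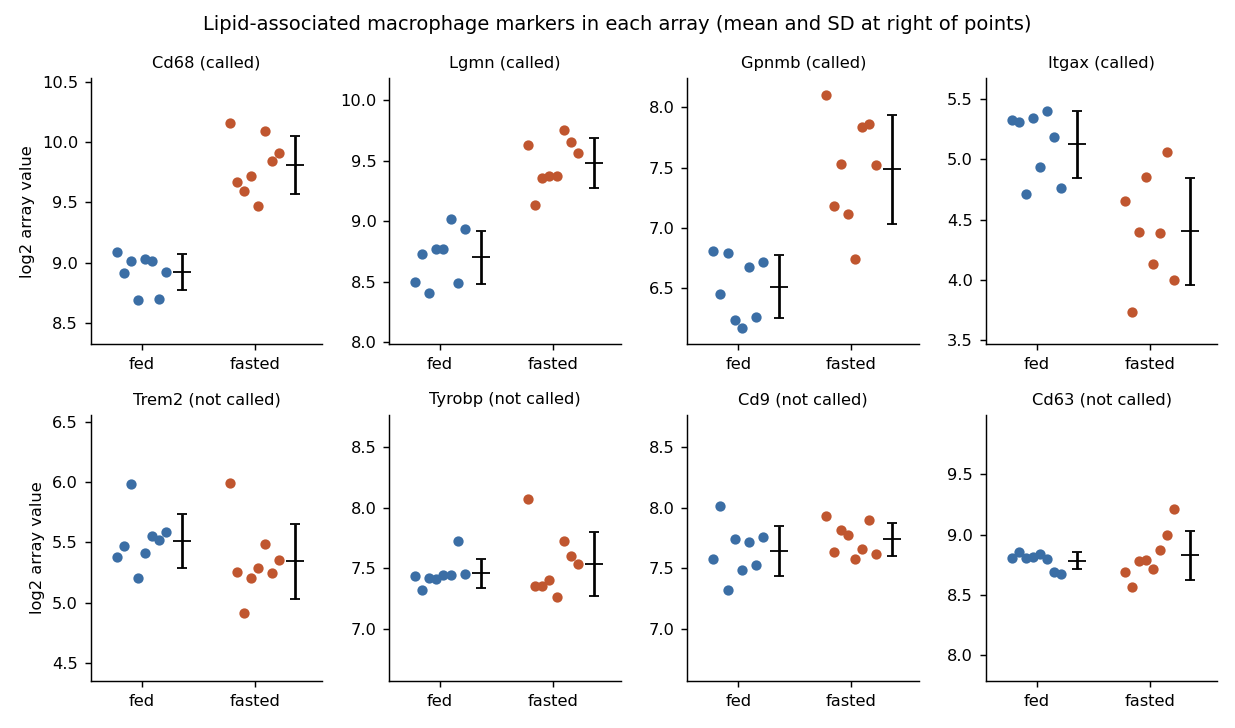
Each point is the log2 array value (vertical axis) of 1 sample for 1 marker, with fed samples at left in blue and fasted samples at right in orange, and the bar beside the points gives the mean and SD of 8 samples. The fed and fasted points of Cd68 and Lgmn do not overlap, those of Gpnmb and Itgax are largely apart, and those of Trem2, Tyrobp, Cd9 and Cd63 overlap.

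The promoters of the called markers are shown because 3 of them rose together and 1 fell. Each is the stretch of 250 bases before a RefSeq transcription start (build GRCm38.p6), written 5′ to 3′ on the strand of the gene, with matches to 4 searched motifs in capitals. The motifs were CACGTG, the palindromic E-box bound by MiT/TFE factors among others, TCATGTG, an M-box, GAGGAAG, a PU.1-like site, and TGACTCA, an AP-1 site, each searched on both strands. The Cd68 window lies at chr11:69666171-69666420 on the minus strand, and the Lgmn window at the second of 2 listed starts, chr12:102439093-102439342, also on the minus strand. The Gpnmb window lies at chr6:49036268-49036517 and the Itgax window at chr7:128129300-128129549, both on the plus strand.
Cd68: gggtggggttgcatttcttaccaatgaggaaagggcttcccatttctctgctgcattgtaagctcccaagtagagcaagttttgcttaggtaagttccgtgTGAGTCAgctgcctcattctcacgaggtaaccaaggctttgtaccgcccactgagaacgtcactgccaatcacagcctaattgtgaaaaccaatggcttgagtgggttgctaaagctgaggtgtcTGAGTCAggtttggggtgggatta
Lgmn: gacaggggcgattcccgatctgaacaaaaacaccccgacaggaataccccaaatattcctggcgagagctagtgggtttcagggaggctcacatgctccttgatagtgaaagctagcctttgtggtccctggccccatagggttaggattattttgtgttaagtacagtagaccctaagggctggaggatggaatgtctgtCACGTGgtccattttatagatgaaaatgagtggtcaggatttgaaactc
Gpnmb: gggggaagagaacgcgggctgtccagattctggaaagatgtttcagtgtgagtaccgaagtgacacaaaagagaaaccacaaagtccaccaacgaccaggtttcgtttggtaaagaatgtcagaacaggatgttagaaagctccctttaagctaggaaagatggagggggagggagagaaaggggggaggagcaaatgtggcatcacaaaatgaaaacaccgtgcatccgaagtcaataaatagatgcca
Itgax: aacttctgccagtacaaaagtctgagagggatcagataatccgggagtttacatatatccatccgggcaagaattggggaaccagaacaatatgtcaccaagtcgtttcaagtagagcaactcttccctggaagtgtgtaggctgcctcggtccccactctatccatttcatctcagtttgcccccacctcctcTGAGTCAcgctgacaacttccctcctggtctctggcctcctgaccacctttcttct
The Cd68 window held the AP-1 letters in reverse orientation beginning 149 and 24 bases before the start, and the Itgax window held them 56 bases before it. Of 32851 RefSeq windows of this length, 4.46% held those letters. The Lgmn window held CACGTG beginning 49 bases before its start, which 6.02% of windows did, whereas the window at the other Lgmn start held none of the 4 motifs. No searched motif was found in the Gpnmb or Cd9 windows. Trem2, Cd63 and the first Spp1 window each held the PU.1-like letters, which were found in 10.6% of windows, and TCATGTG, found in 3.25% of windows, was in none of the markers' windows. RefSeq windows were matched for 8 of the 9 markers, all but Tyrobp. Letters shared with a motif describe the sequence and do not show binding.

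Among the lysosomal markers, Cd68 had the smallest p. It codes for a heavily glycosylated membrane protein of late endosomes and lysosomes, used as a general stain for macrophages. In the fed samples its log2 value (probe set 17264835) ran from 8.69 through a median of 8.97 to 9.09, and in the fasted samples from 9.47 through 9.78 to 10.16. Every fasted sample was above every fed sample. Groups without overlap, in either direction, were seen in 6.48% of all genes. The difference was 0.88 ± 0.10 (SE, 95% confidence interval 0.68 to 1.09) on the log2 scale, or 1.85-fold, with a limma adjusted p of 2.82e-06.

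Lgmn codes for legumain, a lysosomal protease that cuts after asparagine and matures cathepsins. Its fed samples (probe set 17283445) lay between 8.41 and 9.02 with a median of 8.75, and its fasted samples between 9.13 and 9.76 with a median of 9.47. The groups did not overlap here either, although the highest fed and the lowest fasted sample were close to each other. Lgmn rose by 0.78 ± 0.10 (SE, 95% confidence interval 0.56 to 1.00), or 1.72-fold (limma adjusted p = 2.13e-05).

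Gpnmb codes for a membrane glycoprotein of lysosomes and melanosomes. The fed samples (probe set 17458439) ran from 6.18 to 6.81 with a median of 6.56, and the fasted samples from 6.74 to 8.10 with a median of 7.53. Of the fasted samples, 7 of 8 exceeded the highest fed sample, and the fasted samples spread more widely, with an SD of 0.45 against 0.27. The rise was 0.97 ± 0.17 (SE, 95% confidence interval 0.62 to 1.32), or 1.96-fold (limma adjusted p = 3.16e-04).

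Cd63, a tetraspanin of late endosomes and exosomes, behaved otherwise. Its fed samples lay within 8.67 and 8.85 (median 8.81), and its fasted samples between 8.57 and 9.21 (median 8.79). The fasted samples reached both below and above the fed ones. The difference of 0.04 had a 95% confidence interval of -0.12 to 0.21 (limma adjusted p = 0.803), and it turned to -0.01 when fasted replicate 8, the highest sample, was left out.

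At the cell surface, Itgax was the marker that fell. It codes for CD11c, the alpha chain of a beta2 integrin that marks dendritic cells and the macrophages of inflamed fat. The fed samples (probe set 17483615) ran from 4.72 through 5.25 to 5.40, and the fasted samples from 3.74 through 4.39 to 5.06. All 8 fasted samples were below the fed mean and 6 of 8 were below the lowest fed sample. Itgax fell by 0.72 on the log2 scale (SE 0.17, 95% confidence interval -1.07 to -0.37, limma adjusted p = 0.00437). These values are low on the arrays, whose medians lay between 3.60 and 3.69, and background signal compresses differences in that range.

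Trem2 itself did not pass the test. Fed samples lay between 5.20 and 5.98 with a median of 5.50, and fasted samples between 4.91 and 5.99 with a median of 5.27. Fed replicate 3 and fasted replicate 1 were far above the rest of their groups, and 7 of 8 fasted samples were below the fed mean. The difference was -0.17 with a 95% confidence interval of -0.44 to 0.09 (limma adjusted p = 0.433).

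Tyrobp, its adaptor, is shared with many other receptors of myeloid and NK cells. The fed samples lay between 7.32 and 7.72 (median 7.44) and the fasted samples between 7.26 and 8.07 (median 7.47). Fasted replicate 1 was the highest sample, fasted replicate 6 and fed replicate 7 followed at nearly equal values, and the groups overlapped. The difference was 0.08 (95% confidence interval -0.13 to 0.29, limma adjusted p = 0.684).

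Cd9, a tetraspanin of the plasma membrane that sorts with integrins, lay between 7.32 and 8.01 in fed samples (median 7.65) and between 7.58 and 7.93 in fasted samples (median 7.72). The fasted values fell wholly inside the fed range. The difference was 0.10 (95% confidence interval -0.09 to 0.29, limma adjusted p = 0.555), and the dimmer second probe set gave -0.09. For each of the 4 markers not called, the confidence interval reaches changes of between 0.21 and 0.44 in size on the log2 scale, so the test does not show that they were unchanged.

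**Figure D2:**
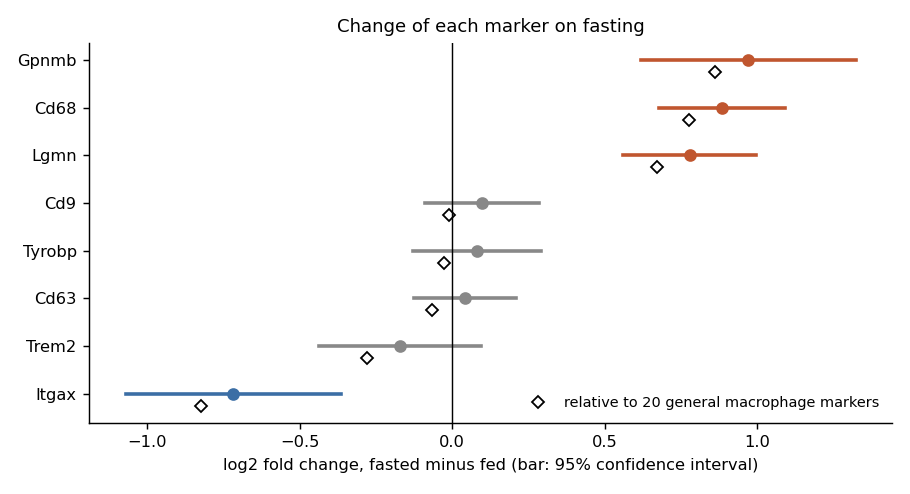
Filled points give the log2 fold change of each marker, fasted minus fed, with its 95% confidence interval (orange, called higher; blue, called lower; grey, not called; 8 samples a group). Open diamonds give the same difference after dividing each array's value by the summed level of 20 general macrophage genes, and they stand below the filled points by the same amount for every marker.

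Exact permutation of the group labels for each marker alone (two-sided) gave p = 0.0001554, the smallest possible with 8 against 8, for Cd68 and Lgmn. It gave 0.000466 for Gpnmb, 0.00233 for Itgax, and between 0.229 and 0.605 for the other 4 markers.

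Because the markers shared each array, the divergence among them was tested as a change of their log2 ratio within arrays, by exact permutation with adjustment over all 28 pairs. Cd68, Lgmn and Gpnmb each rose relative to each of Trem2, Tyrobp, Cd9, Cd63 and Itgax (adjusted p between 3.63e-04 and 0.00136). The ratio of Cd68 to Tyrobp, for instance, went from 1.465 ± 0.23 in fed to 2.27 ± 0.10 in fasted samples (SD, n = 8 each; log2 scale), without overlap. Among the 3 that rose, no ratio passed the test (adjusted p between 0.338 and 0.544). Itgax fell relative to Tyrobp by 0.80 and relative to Cd63 by 0.76 on the log2 scale (exact permutation, adjusted p = 0.00266 for both), and the ratio of Cd9 to Itgax rose by 0.82 (adjusted exact p = 8.70e-04). The ratio of Trem2 to Itgax changed by 0.55 and did not pass (adjusted exact p = 0.0607). Trem2 fell relative to its adaptor by 0.25 (exact permutation, adjusted p = 0.0293), and its ratios to Cd9 and Cd63 changed by -0.27 and -0.21 and did not pass (adjusted exact p = 0.186 and 0.259).

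General macrophage genes gave the background for these changes. All 20 genes of that list, among them Adgre1 (F4/80), Csf1r and the C1q chains, were above a linear value of 20 in at least 8 arrays, and so were all 8 measured markers. The log2 of their summed linear values was 12.63 ± 0.08 in fed and 12.73 ± 0.21 in fasted samples (SD, n = 8 each). The difference of 0.11 did not pass an exact permutation test (p = 0.196), and fasted replicate 1 had the highest sum, 13.13. Of the list, 5 genes were called higher (Mpeg1, Ms4a7, Cd14, C1qb and Fcgr3) and 2 lower (Cx3cr1 and Aif1), with a median change of -0.02. The share called was 35%, against 19.2% of all genes and 4553 of the 10832 genes that passed the filter on dim genes. Fcgr3 lost the call in 16 of 27 alternatives, the replicate block and repeated quantile normalization among them, C1qb in 3, and Cd14 in 1, the threshold of 0.01.

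Taken as a ratio to this sum, Cd68 rose by 0.78 and Lgmn by 0.67 on the log2 scale (exact permutation, adjusted p = 6.22e-04 over 8 markers, n = 8 a group). Gpnmb rose by 0.86 (adjusted exact p = 0.00166) and Itgax fell by 0.83 (adjusted exact p = 0.00249). Trem2, not called on its own, fell by 0.28 relative to the sum (adjusted exact p = 0.0256). The sum is weighted to its brightest genes, such as Lyz2 and C1qb. It differed by 0.11 between the groups, while the median change of the list was -0.02. Some genes of the list, Csf1r and Spi1 among them (both -0.22, not called), changed at least as much as Trem2 alone (-0.17), and others rose. Ratios to a differently weighted sum were not tested. The ratios of Tyrobp, Cd9 and Cd63 changed by -0.03, -0.01 and -0.07 and did not pass (adjusted exact p between 0.766 and 0.908). This comparison was added after the values had been seen.

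Among the fasted samples the markers varied together more than among the fed samples. Over the 28 pairs of the 8 markers, the median Pearson r was 0.51 in the 8 fasted samples, with 26 pairs positive and 9 above 0.7. In the 8 fed samples the median was -0.09, with 11 pairs positive and 0 above 0.7. Correlations of the markers with all other genes had medians of -0.01 in fasted and 0.00 in fed samples, and 3.21% and 2.79% of them were above 0.7. Those other genes include many dim ones, since only 10832 of all 22180 genes passed the filter on dim genes. The share among bright genes alone was not computed. The difference between the groups was not tested, and leaving out single samples moved the median from 0.36 (without fasted replicate 2) to 0.58 in fasted and from -0.20 to 0.07 in fed samples.

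**Figure D3:**
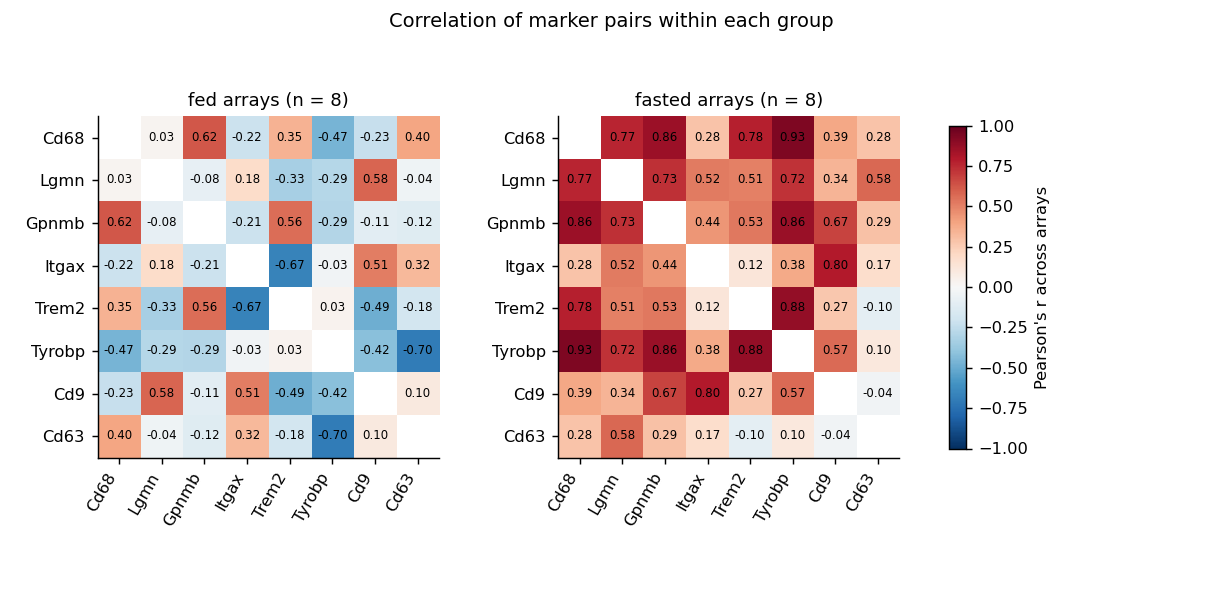
Each cell gives Pearson's r between 2 markers over the 8 fed samples (left) or the 8 fasted samples (right), on a colour scale from -1 to 1. Positive values fill most of the fasted panel, with the highest r at Cd68 and Tyrobp, while the fed panel mixes signs.

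Some samples stood high or low for most markers at once. Fasted replicate 1 was above the fasted mean for 7 of the 8 markers (mean of 1.12 SD), Cd63 being the exception. Fasted replicates 2 and 5 were below the mean for all 8 markers, by 0.94 and 0.89 SD on average. In the fed group, replicate 6 was above the mean for 7 of 8 markers (0.53 SD), and no sample was below it for more than 5 of the 8. Fasted replicate 1 also had the highest summed level of general macrophage, resident macrophage, monocyte, dendritic, neutrophil and mast cell genes among fasted samples. The same sample had the highest sum of progenitor genes (13.10) and the lowest of adipocyte (14.17), endothelial (11.89) and T cell genes (6.25) in that group. Its part in the correlations was measured by leaving it out, which kept the median r at 0.52.

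Tyrobp and Cd68 formed the one pair that passed adjustment over the 56 relations computed. Over the 8 fasted samples r was 0.93 (exact permutation p = 1.49e-04, adjusted p = 0.00833), and Spearman's rho was 0.95 (exact permutation p = 0.00114, adjusted p = 0.0639). Without the 2 samples farthest from the median of Cd68, r was 0.93, and it stayed between 0.93 and 0.97 when any 1 fasted sample was left out. In the 8 fed samples r was -0.47, and it became 0.30 without fed replicate 7, the sample in which Tyrobp was highest and Cd68 nearly lowest. Tyrobp thus tracked Cd68 from sample to sample within the fasted group, although only Cd68 differed between the groups in the test.

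**Figure D4:**
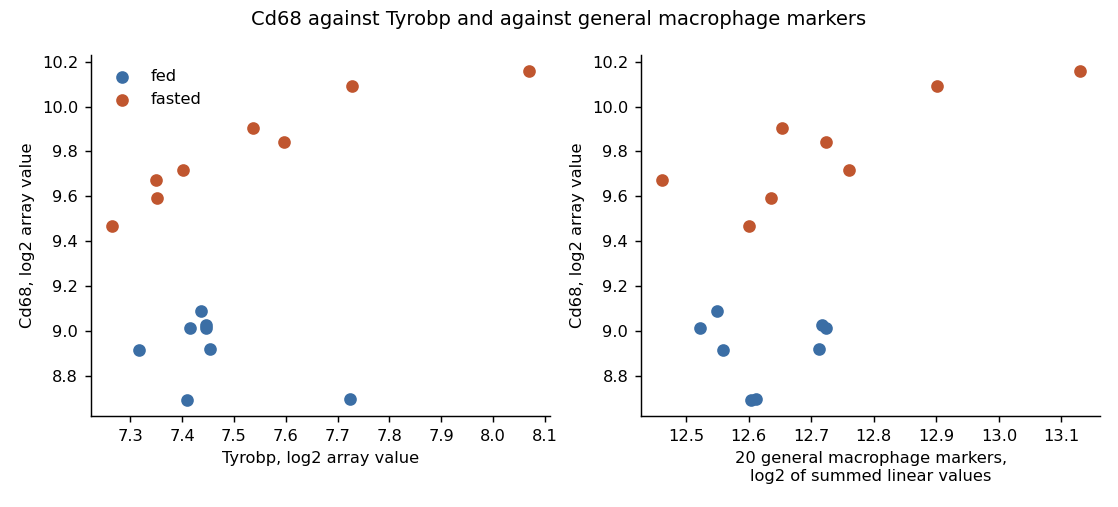
Cd68 (vertical axes) is plotted against Tyrobp (left) and against the log2 summed level of 20 general macrophage genes (right), 1 point per sample, fed in blue and fasted in orange, all on log2 scales. In both panels the fasted points lie above all fed points, and in the left panel they rise along a line with Tyrobp (r = 0.93).

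Next in size in the fasted group were Trem2 with Tyrobp (r = 0.88, rho = 0.55), Gpnmb with Tyrobp (r = 0.86, rho = 0.86) and Cd68 with Gpnmb (r = 0.86, rho = 0.74). Each had an adjusted p of 0.108 by exact permutation of Pearson's r (n = 8), and for rho the adjusted exact p lay between 0.300 and 0.563. Without the 2 samples farthest from the median, r was 0.68, 0.81 and 0.73, in that order. The receptor and its adaptor owed much of their r to 1 sample, since it fell to 0.60 without fasted replicate 1. In all, 9 fasted and 2 fed pairs had an unadjusted exact p under 0.05, the fed ones being negative (Cd63 with Tyrobp, r = -0.70, and Trem2 with Itgax, r = -0.67).

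Set against the general macrophage sum within each group, 0 of 16 relations passed exact permutation after adjustment, by Pearson's r or Spearman's rho, and 6 and 3 had an unadjusted exact p under 0.05. The nearest was Tyrobp in fasted samples, with r = 0.91 and rho = 0.91 (adjusted exact p = 0.0504 and 0.0730, n = 8). Without the 2 samples farthest from the median its r was 0.80. Cd68 in fasted samples had r = 0.81 and rho = 0.83 (adjusted exact p = 0.0859 and 0.123, n = 8), and Lgmn in fed samples had r = 0.82 and rho = 0.76 (adjusted exact p = 0.0859 and 0.196, n = 8).

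The genes most like the markers were ranked by the correlation, over 16 arrays, between deviations from the group means. Among 22172 other genes, those closest to the mean of the markers were Cd53 (r = 0.86), a leukocyte tetraspanin, Inha (0.85), the inhibin alpha chain, and Ctsk (0.84), the protease cathepsin K. Vav1 (0.83), a guanine exchange factor of blood cells, Rab7 (0.82), a small GTPase of late endosomes, B4galt5 (0.81) and Slfn2 (0.81) followed. Pla2g7 (0.80), which codes for a secreted phospholipase of macrophages, Mmp2 (0.80), a gelatinase, and Vdr (0.80), the vitamin D receptor, completed the 10. These are descriptions over 16 samples, picked as the highest among many genes.

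Of these 10 genes 2 were called, a share near the 19.2% of all genes: Pla2g7 and Vdr were higher in fasted samples by 1.11 ± 0.10 and 1.30 ± 0.15 (SE; limma adjusted p = 1.62e-07 and 2.93e-06). For single markers, 5430427O19Rik (r = 0.87) was closest to Cd68 and Fsd1 (r = 0.82) to Gpnmb, and neither was called. C5ar1, the receptor for complement fragment C5a, ranked 3rd for both Cd68 (r = 0.83) and Gpnmb (r = 0.81). It rose by 0.70 (limma adjusted p = 1.02e-04). Closest to Lgmn was Cerk (r = 0.85), ceramide kinase, which rose by 0.47 (limma adjusted p = 2.82e-04). Stx7 (r = 0.90), a syntaxin of late endosomes, was closest to Cd9. Closest to Itgax, Cd63 and Tyrobp were Pigt (0.88), 1110038B12Rik (0.84) and Gm7904 (0.89). Closest to Trem2 was Olfr688 (0.90), an olfactory receptor gene.

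Other genes of the programme were given by a list of lipid-handling, lysosomal and matrix genes. Of 34 measured, 9 were higher and 2 lower in fasted samples, with a median change of 0.12 against 0.00 over all genes. All 34 passed the filter on dim genes. The share called was 32.4%, against 19.2% of all genes and 4553 of the 10832 genes that passed that filter. The highest rises were those of Abcg1, a cholesterol exporter, by 2.15 ± 0.11, of Npc1, which moves cholesterol out of lysosomes, by 1.42 ± 0.09, and of Plin2, a lipid droplet coat protein, by 1.00 ± 0.09 (SE; limma adjusted p at most 3.91e-07). The dimmer second probe set of Npc1 gave 0.37 (limma adjusted p = 0.0668). Lipa (lysosomal acid lipase), Nceh1 (neutral cholesterol ester hydrolase), the scavenger receptor Msr1, the exporter Abca1, the oxysterol receptor gene Nr1h3 and Vat1 also rose, and the galectin Lgals1 and the phosphatase Acp5 fell. These 8 genes were named after their values were seen. Adipocytes also make several genes of this list, Plin2, Lpl, Cd36 and Fabp4 among them, and Lpl, Cd36, Fabp4 and Fabp5 were not called.

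Genes around TREM2 moved both ways. The list held 21 measured genes for related receptors, adaptors, kinases, sheddases and ligands. Of these, 4 were higher (Apoe, Ms4a7, Vav3 and Syk) and 3 lower (Fgr, Ptpn6 and Plcg2), with a median change of 0.03. The share called was 33.3%, against 19.2% of all genes and 4553 of the 10832 genes that passed the filter on dim genes. Apoe, whose product is a lipoprotein ligand of TREM2, rose by 1.03 ± 0.10 (SE; limma adjusted p = 3.25e-07). Ms4a7, a macrophage membrane gene that is also on the general macrophage list, rose by 0.86 ± 0.12, and Fgr, a Src-family kinase, fell by 0.59. Syk, the kinase recruited by DAP12, rose by 0.34, while Plcg2, a phospholipase further along the pathway, fell by 0.40. The sheddases Adam10 and Adam17, which release TREM2 from the cell surface, changed by 0.04 and -0.04 and were not called.

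Regulators of lysosomal genes were also given. Of 8 genes of the MiT/TFE factors and the folliculin complex that controls them, 3 rose and 0 fell. Of all genes 8.49% were called higher and 10.7% lower. Mitf, a member of that family, went from a mean of 5.69 in fed to 6.56 in fasted samples without overlap. Its rise was 0.87 ± 0.09 (SE; limma adjusted p = 8.85e-07). Flcn and Fnip1, which code for folliculin and its partner, rose by 0.63 and 0.47. Tfeb and Tfe3 changed by 0.09 and 0.08 and were not called. Tfeb had means of 3.48 in fed and 3.57 in fasted samples, below the lowest array median of 3.60, so little can be read from it. Only 5 of the 8 genes passed the filter on dim genes, and Tfeb and Tfec did not. Tfec changed by 0.35 and was not called either (limma unadjusted p = 0.0273, adjusted p = 0.111).

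The relatives of Cd68 and Lgmn showed smaller changes. In the LAMP family, to which the CD68 protein belongs, Lamp2 was called higher by 0.21. Scarb2, listed with the family as a lysosomal membrane protein, was called higher by 0.28. That made 40% of the list, against 19.2% of all genes. The other 3 of the 5 genes were not called, and of these Lamp3 and Lamp5 did not pass the filter on dim genes. Lamp2 lost the call under the replicate block and without any 1 of 5 samples, fed replicates 1 and 8 and fasted replicates 1, 7 and 8. Scarb2 lost it when fed replicates 2 and 3 and fasted replicate 7 were left out together. In the group of legumain's substrates, inhibitors and relatives, 1 of 7 was called (14.3%, against 19.2% of all genes). It was Pigk, which is related to legumain in sequence and fell by 0.34. The cathepsins Ctsb and Ctsl, known substrates of legumain, changed by -0.10 and 0.18 and were not called.

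The relatives of Cd9 and Cd63 were mostly lower or not called. Of 20 other tetraspanins, 1 was higher and 9 were lower (8.49% and 10.7% of all genes), with a median change of -0.22 against 0.00 over all genes. The falls were led by Tspan12 (-0.92 ± 0.08), Tspan13 (-0.72 ± 0.08) and Tspan17 (-0.63 ± 0.17; SE, limma adjusted p at most 0.00970). The single rise was that of Tspan15, by 0.36, and it lost the call in 7 of 27 alternatives. Cd53, the tetraspanin closest to the markers from sample to sample, changed by 0.28 (limma adjusted p = 0.112). Of 7 partners of CD9 and CD63, only the integrin alpha chain Itga3 was called (14.3% of the list, against 19.2% of all genes). It rose by 0.85 ± 0.14 (SE; limma adjusted p = 1.44e-04).

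For Itgax, its partner chain Itgb2 changed by -0.10 and was not called. Among the 6 beta2 integrin genes and ligands listed, Itgal alone was called (16.7%, against 19.2% of all genes). It fell by 0.35 (limma adjusted p = 0.0409), a call that was lost in 17 of 27 alternatives. For Spp1, 0 of 9 osteopontin receptor genes were called by limma, against 19.2% of all genes. Of the 9, 5 had an unadjusted p under 0.05, 1 above zero (Itgb3) and 4 below it (Itgav, Itgb5, Itga8 and Cd44). The lowest p was that of Itgav, which changed by -0.23. Itgav was called in 5 of 27 alternatives, without fed replicate 3 or fasted replicate 7 among them.

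**Figure D5:**
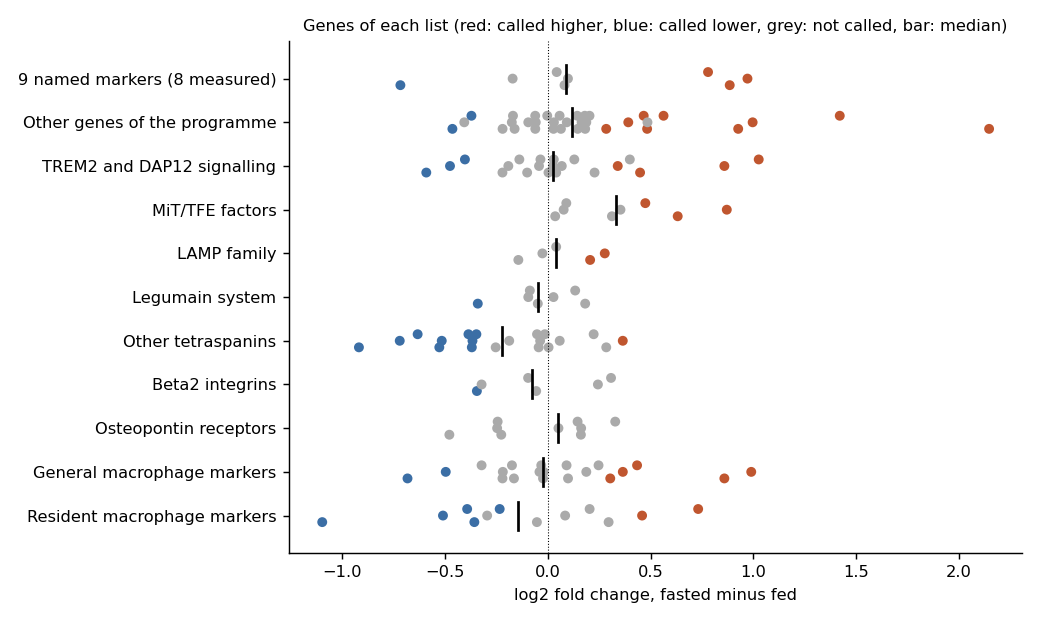
Each point is the log2 fold change, fasted minus fed (horizontal axis), of 1 gene in the list named at left, red where called higher, blue where called lower and grey where not called, and the black bar is the list's median. Among the tetraspanins 9 of 20 genes were called to the left of zero and 1 to the right, and among the programme genes 2 of 34 to the left and 9 to the right. Of all genes, 10.7% were called to the left and 8.49% to the right. Those shares include dim genes, while all 34 programme genes and 18 of the 20 tetraspanins passed the filter on dim genes.

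Other cells of the tissue were followed with their own marker lists. The label of the tissue was borne out by adipocyte genes, all 8 of which were above a linear value of 20 in at least 8 arrays. Their log2 summed level was 14.04 to 14.31 in fed and 14.17 to 14.43 in fasted samples. Within that list Plin1, a lipid droplet coat protein, fell by 0.84 without overlap (limma adjusted p = 6.95e-07). Plin4, Cidec and Aqp7 rose by 0.35, 0.25 and 0.24, the last lost in 4 of 27 alternatives. That made 50% of the list called, against 19.2% of all genes and 4553 of the 10832 genes that passed the filter on dim genes. Among 12 markers of resident macrophages 2 were higher (Cd163 and Clec10a) and 5 lower (Mgl2, Timd4, Cbr2, Gas6 and Mrc1, the last lost in 13 of 27 alternatives). The share called was 58.3%, against 19.2% of all genes and 4553 of the 10832 genes that passed the filter on dim genes. The summed level of the 12 was 12.12 to 12.52 in fed and 12.08 to 12.61 in fasted samples. Of 5 monocyte genes Chil3 was higher and Ccr2 lower, a share of 40% against 19.2% of all genes. Their summed level was 10.80 to 11.43 in fed and 10.95 to 11.49 in fasted samples. Chil3 lost the call in 8 of 26 alternatives. It did not reach a linear value of 20 in at least 8 arrays, with means of 3.18 in fed and 4.05 in fasted samples.

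Dendritic cells also carry Itgax, and their genes were listed for that reason. Of 8 measured, Zbtb46 was higher by 0.43 and Itgae lower by 0.81, a share of 25% against 19.2% of all genes. The summed level was 7.84 to 8.35 in fed and 8.135 to 8.47 in fasted samples. Only 3 of the 8 genes reached a linear value of 20 in at least 8 arrays. Itgae was not among them, with means of 4.07 in fed and 3.265 in fasted samples, the latter below the array medians. Of 7 NK cell genes, which share Tyrobp with macrophages, Gzma and Ncr1 were lower (Ncr1 lost the call in 11 of 27 alternatives). That was 28.6% of the list, against 19.2% of all genes. The sum ran from 6.07 to 6.56 in fed and 5.86 to 6.24 in fasted samples. In the neutrophil, mast cell, T cell and B cell lists 0 of 27 genes were called by limma, against 19.2% of all genes. An unadjusted p under 0.05 was found for 0 of them. Only 7 of those 27 genes, and 1 of the 7 NK cell genes, reached a linear value of 20 in at least 8 arrays, so most lay near background. Gzma, called lower, had means of 3.18 and 2.56, below the array medians. The part of these cells in the changes of the markers was not tested.

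Endothelial genes also differed between the groups. Of 7 measured, Sox17, Pecam1 and Tek were higher by 0.60, 0.39 and 0.22 and Erg lower by 0.42, with a median change of 0.31, and all 7 had an unadjusted p under 0.05, 6 of them higher. Tek lost the call in 13 of 27 alternatives. Of the list 57.1% was called, against 19.2% of all genes and 4553 of the 10832 genes that passed the filter on dim genes. The summed level was 11.59 to 12.10 in fed and 11.89 to 12.22 in fasted samples. Of 8 progenitor genes, Cd34 and Lum were lower by 0.52 and 0.68 (25% of the list called, against 19.2% of all genes). Their sum ran from 12.65 to 12.90 in fed and 12.69 to 13.10 in fasted samples. Of 8 mesothelial genes only Krt19 was called (12.5% of the list), lower by 0.55, a call lost in 18 of 27 alternatives. The mesothelial sum ran from 10.84 to 11.71 in fed and 10.19 to 11.68 in fasted samples. The part of these cells in the marker changes was not tested either.

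Of 10 epithelial genes Tppp3 alone was called, lower by 0.80, and of 9 liver genes Apoc3 alone, higher by 0.95, a call lost in 5 of 27 alternatives. These were 10% and 11.1% of their lists, against 19.2% of all genes. Fed replicate 2 and fasted replicate 7 had the highest summed level of epithelial genes of their groups, 10.02 and 9.33, against medians of 9.12 and 8.74. With fed replicate 3, these were the samples that stood apart in an earlier analysis. Without the 3 samples together, the markers called were still 3 higher and 1 lower. Liver genes also varied among samples, from 9.83 to 13.06 in fed and 10.06 to 12.65 in fasted samples, and their part in the marker values was not tested.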

How the data were processed

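The authors deposited 1 table of log2 values for 16 arrays, made with RMA per the submitters' processing notes. Its software, version and batches: not given in the sources used here. RMA sets arrays to a shared distribution, so changes are relative to the other transcripts of an array, and the number of arrays limits the precision. Of 41345 probe sets, 25335 were listed in GEO's platform annotation, which can be old, and 23521 of these had 1 symbol, 1814 several, and 16010 were unnamed here. Probe sets of 1 symbol gave 22180 genes, by the highest mean for the 1082 genes with several.

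The comparison used R 4.3.3 and limma 3.58.1, with a linear model of group alone, default moderation and no further filter. Calls required an adjusted p under 0.05 (Benjamini-Hochberg, all genes). Each group had 8 samples. Summed levels are log2 of the sum of linear values. Correlations and ratios were tested by exact permutation (two-sided, scipy 1.17.1). The family of correlations was 56 relations, fewer than the plan for 9 markers, because Spp1 had no value. Scripts were tested on simulated data.

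The markers, gene lists, tests and alternatives were chosen with earlier results of these data known. Named genes were all markers, up to 3 called genes with the largest change of each list (or the one with the lowest p), the 10 genes most like the markers' mean and 3 per marker. Genes named beyond this rule were chosen after their values had been seen. Ratios between markers, ratios to the macrophage sum and promoter motifs were added after values had been seen. Whether the replicate numbers shared by the groups pair the samples is not stated in the labels, and no pairing was used in the main analysis. Alternatives were other normalizations, a filter on dim genes (a minimum of 20 on the linear scale, reached in 8 arrays or more), other variance models, array weights, the replicate block, leaving out arrays, other probe sets, a threshold of 0.01 and other inputs to the correlations. Promoters come from RefSeq, and no gene coordinates are given because the files name no build.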

Additional observations from a re-analysis of the deposited data

Results flagged for a closer look

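Tyrobp in fed replicate 7 stood apart from the other fed samples, at a log2 value of 7.724 with the next highest at 7.454. The gap was 0.662 of the range of the 8 fed samples, above Dixon's critical value for 8 samples at the 95% level. The test was run for 8 markers in 2 groups, and chance would give about 1 such sample in 20 groups. In the same sample Cd68 and Cd63 were 1.49 and 1.45 SD below the fed means, and without it the correlation of Cd68 with Tyrobp among fed samples went from -0.47 to 0.30.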

How the results depend on the processing

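Over 28 alternatives the same 4 markers were called in the same directions. The log2 change ran from 0.83 to 0.93 for Cd68, from 0.71 to 0.83 for Lgmn, from 0.88 to 1.08 for Gpnmb and from -0.85 to -0.62 for Itgax (limma adjusted p at most 0.0108). The sign of 3 genes that were not called turned: Cd63 ran from -0.0122 to 0.0797 when single samples were left out, and the dimmest probe sets gave -0.0895 for Cd9 and 0.013 for Itgav. Of 80 called genes named in the text or by its rule, 58 kept the call throughout and 22 lost it under at least 1 alternative, the stricter threshold included.

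Of all genes, 4251 were called, and 2766 at an adjusted p under 0.01. Of the calls 44.3% were higher in fasted samples, against 54.7% after subtracting array medians. The pairs of markers that passed among fasted samples went from 1 to 0 with Spearman's rho, and to 0 without the 2 samples farthest from the median, where fewer samples enter. With the replicate block 3829 genes were called, and 3 markers higher and 1 lower, as without it. Same-numbered samples had deviations that correlated between -0.22 and 0.22, and 2 of 8 fed samples correlated best with their own number. Background signal limits what can be read from dim probe sets such as that of Itgax.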
